A study of Mus musculus with 4 samples.

Results

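Chromatin remodellers and histone modifiers, the enzymes and subunits that slide nucleosomes and write or erase marks on histones and DNA, were examined in 3 kinds of mouse innate lymphoid cell from a study that took the same cells for Hi-C, which maps chromosome contacts. A list of 39 genes was taken by symbol, and all 39 were found among the 30731 genes listed for every library. The group 3 cells were MNK-3, an ILC3-like cell line that arose from NIH-Swiss thymocytes of fetal day 15 and was grown with IL-15 and IL-7 (2 libraries). The group 2 cells (ILC2) were expanded with IL-33, IL-25, IL-7 and IL-2 from C57BL/6 bone marrow (1 library). The group 1 cells were natural killer (NK) cells of C57BL/6 spleen (1 library, no culture stated). Cytokines were used at 10 ng/ml, the ILC2 and NK cells were pooled from mice aged 8 to 12 weeks, and the labels give all groups as wild type. Cell type therefore coincided with tissue and culture, and for MNK-3 also with strain, age and the set of genes counted, which cannot be told apart here.

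BAF and PBAF are assemblies that use ATP to move or evict nucleosomes. Polycomb repressive complex 2 (PRC2) methylates histone H3 at lysine 27, PRC1 ubiquitinates histone H2A, and both maintain silenced genes, whereas the KMT2 enzymes methylate lysine 4 of histone H3 at promoters and enhancers. NuRD couples a nucleosome remodeller to histone deacetylases, CBP and p300 acetylate histones at active enhancers, DNMT enzymes methylate DNA, and TET enzymes oxidise that methyl group. In lymphocytes these proteins act together with lineage transcription factors, and Ezh2 in particular is known as an enzyme of dividing cells, with Ezh1 more prominent in resting ones.

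The libraries held 25617762 and 15177345 reads in shared genes in MNK-3, 9298162 in ILC2 and 4637812 in NK. Levels are given as CPM, the counts scaled to 1000000 of these reads. MNK-3 replicate 1 stood apart, with 75.8% of its reads outside genes, against 24.3% in replicate 2, 23.1% in ILC2 and 47.1% in NK. A count was present for 95.6% of the shared genes in it, against 70.4% in replicate 2, 69.6% in ILC2 and 76.0% in NK. Replicate 1 over replicate 2 gave the 39 chromatin genes log2 ratios of -0.54 to 0.52, with a median of -0.25. Defining transcripts matched the labelled identities, apart from Klrg1 and Il17rb, ILC2 markers that were not highest in ILC2. Il23r, a cytokine receptor chain of group 3 cells, had 209 and 306 CPM in MNK-3, 0 CPM in ILC2 and 0 CPM in NK. Il5, an ILC2 cytokine, had 4.06 and 0 CPM in MNK-3, 1334 CPM in ILC2 and 0 CPM in NK, and Ncr1, which encodes NKp46, had 3.40 and 4.94 CPM in MNK-3, 0 CPM in ILC2 and 1114 CPM in NK. Summed T cell markers came to 219 and 143 CPM in MNK-3, 16.2 CPM in ILC2 and 91.0 CPM in NK. Among them Cd3e had 30.4 and 0.0659 CPM in MNK-3 replicates 1 and 2, whereas Trbc1 had 84.5 and 115 CPM. Summed B cell markers came to 89.3 and 67.8 CPM in MNK-3, 169 CPM in ILC2 and 134 CPM in NK. Ighm made up 129 CPM of that sum in ILC2 and 127 CPM in NK, and Cd79b 37.6 CPM in ILC2. Summed myeloid markers came to 39.2 and 1.91 CPM in MNK-3, 13.4 CPM in ILC2 and 243 CPM in NK. Itgam, also an NK cell gene, made up 233 CPM of the NK sum.

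All 39 chromatin genes had counts in every library, the lowest being Ring1 with 661 and 323 reads in MNK-3, 94 in ILC2 and 48 in NK. Together they took 9624 and 11900 CPM in MNK-3, 9321 CPM in ILC2 and 11080 CPM in NK, lowest in ILC2 and highest in MNK-3 replicate 2. Set against the 19124 genes at 1 CPM or more on average and scaled to exon length, the median member stood at percentile 87.3 and 88.1 in MNK-3, 87.4 in ILC2 and 88.8 in NK, and no member was below percentile 56.5 in any library. Per kb, Chd4, the ATPase of NuRD, was at 101 and 134 CPM per kb in MNK-3, 132 CPM per kb in ILC2 and 139 CPM per kb in NK, and Rbbp7, a histone chaperone of PRC2 and NuRD, was at 90.0 and 131 CPM per kb in MNK-3, 110.1 CPM per kb in ILC2 and 67.9 CPM per kb in NK. At the other end Ring1, an E3 ligase of PRC1, was at 7.96 and 6.56 CPM per kb in MNK-3, 3.12 CPM per kb in ILC2 and 3.19 CPM per kb in NK. Ring1 was the lowest member in ILC2 and NK, but Jarid2 was lower in MNK-3, at 7.73 and 5.38 CPM per kb.

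**Figure D1:**
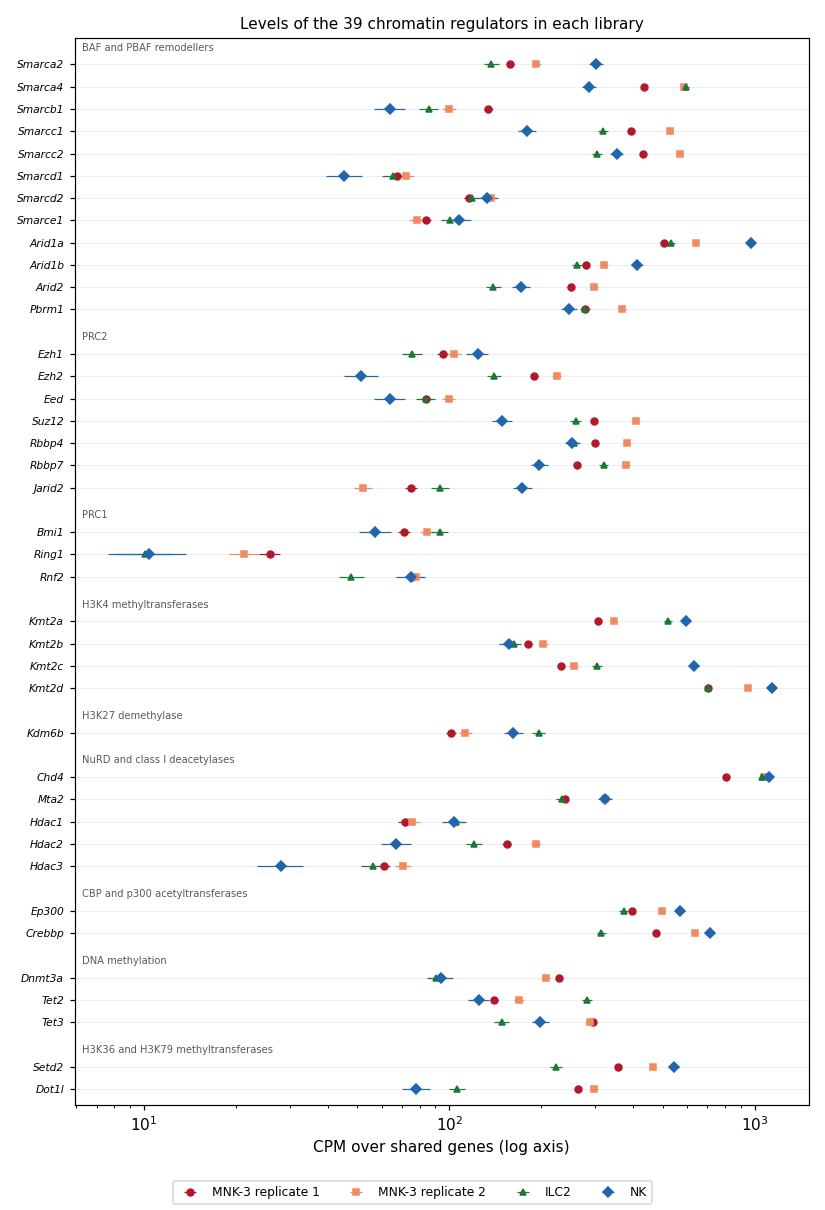
CPM over shared genes (horizontal, log axis) of the 39 genes in each library, by class, with bars for the exact 95% counting interval, which covers counting error only. Ezh2 and Dot1l show wide spreads with NK lowest, and Kmt2c and Jarid2 wide spreads with NK highest.

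**Figure D2:**
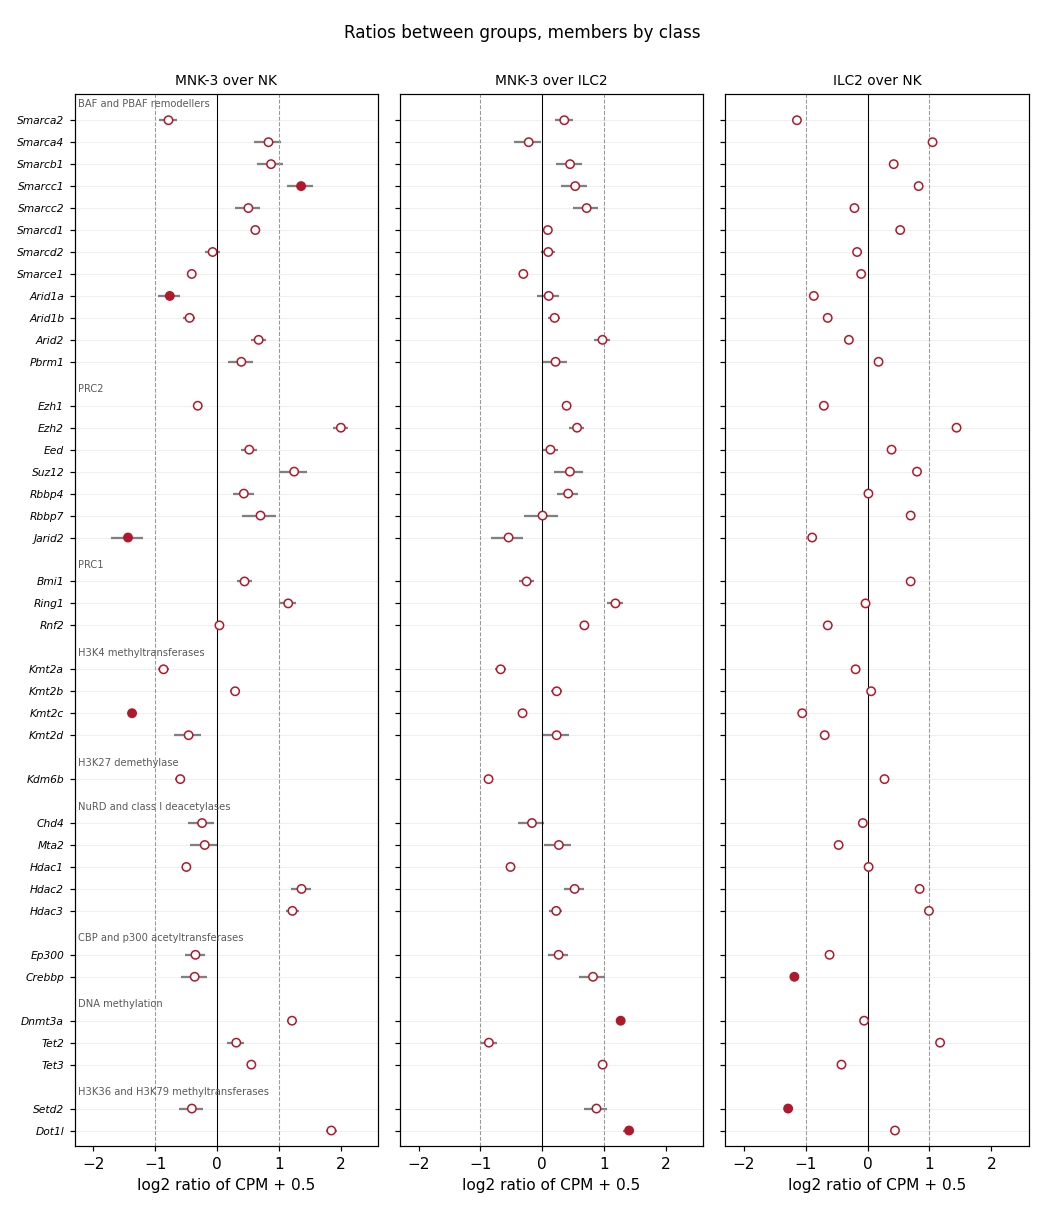
Log2 ratios of CPM plus 0.5 for MNK-3 over NK, MNK-3 over ILC2 and ILC2 over NK, with MNK-3 as the mean of 2 libraries and grey lines joining the ratios of each MNK-3 library alone. Filled points passed limma voom at an adjusted p under 0.05 over all genes, dashed lines mark 2-fold, and 8 points are filled over the 3 comparisons.

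In the group 3 line against group 1 cells, 8 of 39 chromatin genes passed 2-fold upward in MNK-3 and 2 passed it downward, with 29 inside those bounds. Of all 11277 genes at 10 CPM or more in either group, 36.4% passed 2-fold upward and 10.9% downward. Of the 4102 genes that passed upward, 3533 had both MNK-3 libraries above NK. The members' median log2 ratio was 0.31, against 0.58 for those genes. Both MNK-3 libraries lay above NK for 22 members and below for 15, against 56.5% and 24.8% of genes on each side. By limma voom, 1 member was called higher and 3 lower, where 0.289% and 2.04% of 25283 tested genes were called in those directions. An unadjusted p under 0.05 was reached by 13 members in either direction, and by 5.19% of tested genes. How the members stood relative to other genes turned on which MNK-3 library was used. Without MNK-3 replicate 1 the members' median was 0.44, against 0.37 for genes at 10 CPM or more and -0.26 for all genes tested. Without replicate 2 it was 0.17, against 0.88 and 1.38. With both libraries the median over all genes tested was 0.88. Median-of-ratios factors gave a members' median of 0.094, with 5 members at least 2-fold higher and 3 at least 2-fold lower.

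Against ILC2, 3 chromatin genes passed 2-fold upward in MNK-3, 0 passed it downward, and 36 lay inside. The same thresholds were passed by 32.4% and 10.2% of 11253 genes. The members' median log2 ratio was 0.23, against 0.50 for those genes. Both MNK-3 libraries lay above ILC2 for 23 members and below for 9, against 56.9% and 25.1% of genes. Limma voom called 2 members higher and 0 lower, where 0.902% and 2.37% of tested genes were called, and 10 members had an unadjusted p under 0.05 in either direction, against 7.91% of tested genes. Here too the standing relative to other genes depended on the MNK-3 library. Without replicate 1 the members' median was 0.40, against 0.31 for genes at 10 CPM or more and 0 for all genes tested, and 6 members were at least 2-fold higher. Without replicate 2 it was 0.098, against 0.76 and 1.64, and 3 members were at least 2-fold higher and 1 lower. With both libraries the median over all genes tested was 1.12. This comparison also turned with the library scaling, since TMM factors gave 1 member higher and 3 lower and median-of-ratios factors 0 higher and 5 lower.

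Between ILC2 and NK, with 1 library each, 3 chromatin genes were at least 2-fold higher in ILC2 and 4 at least 2-fold lower, against 22.1% and 16.8% of 9795 genes. The members' median log2 ratio was -0.06, against 0.07 for those genes. Limma voom called 0 members higher and 2 lower, where 0.479% and 0.819% of tested genes were called, and 8 members had an unadjusted p under 0.05 in either direction, against 4.11% of tested genes. TMM and median-of-ratios factors each gave 9 members higher and 0 lower in ILC2. The comparisons share libraries, so they are not independent of each other.

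P-values here reflect the spread between the 2 MNK-3 libraries alone, possibly technical, and assume that the single ILC2 and NK libraries vary likewise. None of the 8 member calls below, nor any call among further genes of these complexes, was made under TMM or median-of-ratios scaling. With factors from abundant genes, the calls kept were those of Arid1a and Nsd1 for MNK-3 over NK and of Baz1a, Dnmt1 and Nsd1 for MNK-3 over ILC2. Without the filter on low counts, the calls kept among members were those of Arid1a and Kmt2c for MNK-3 over NK and of Crebbp for ILC2 over NK. The calls of further genes lost under that setting were those of Aebp2 and Cbx5 in both comparisons with NK, of Nsd2 and Trim28 for MNK-3 over NK, and of Cbx6, Hdac5, Kat6b and Phc3 for MNK-3 over ILC2. In bulk RNA, fewer cells of a type and less RNA per cell cannot be told apart.

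PRC2 held the highest log2 ratio of any member for MNK-3 over NK, that of a catalytic subunit. Ezh2, the methyltransferase, had 190.1 and 225 CPM in MNK-3, 140.5 CPM in ILC2 and 51.5 CPM in NK. The MNK-3 and ILC2 libraries were all above NK, by log2 ratios of 2.00 and 1.44. Neither ratio passed the test (limma voom adjusted p 0.324 for MNK-3 over NK and 0.999 for ILC2 over NK). Ezh1, its paralog, had 95.2 and 104 CPM in MNK-3, 75.7 CPM in ILC2 and 124 CPM in NK, with the highest value in NK.

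Counted within each library, which does not depend on scaling, Ezh2 took 66.6% and 68.4% in MNK-3, 65.0% in ILC2 and 29.4% in NK of the reads of the Ezh2 and Ezh1 pair. The exact Clopper-Pearson 95% intervals were 65.5% to 67.7% and 67.1% to 69.7% in MNK-3, 62.8% to 67.1% in ILC2 and 26.3% to 32.7% in NK, and they cover counting error only. Per kb of exon, the ratio of Ezh2 to Ezh1 was 2.23 and 2.41 in MNK-3, 2.07 in ILC2 and 0.464 in NK. Ezh2 was thus the more abundant transcript in 3 libraries and Ezh1 in the NK library.

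Suz12, the scaffold of PRC2, had 297 and 410.2 CPM in MNK-3, 259.6 CPM in ILC2 and 149 CPM in NK, and its log2 ratio of 1.24 for MNK-3 over NK did not pass (limma voom adjusted p 0.152). Eed, which binds trimethylated lysine 27, had 83.7 and 99.6 CPM in MNK-3, 83.7 CPM in ILC2 and 63.8 CPM in NK. Rbbp4, a histone chaperone, had 301 and 382 CPM in MNK-3, 255 CPM in ILC2 and 253 CPM in NK, and Rbbp7 had 262 and 381 CPM in MNK-3, 320.4 CPM in ILC2 and 198 CPM in NK. Those last 3 subunits stayed within 2-fold in every comparison.

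Jarid2, which recruits PRC2 and modulates its activity, went the other way. It had 75.1 and 52.2 CPM in MNK-3, 93.1 CPM in ILC2 and 174 CPM in NK, both MNK-3 libraries lying below the other groups. Jarid2 (ENSMUSG00000038518, chromosome 13, 44729474 to 44921643, mm10) fell in MNK-3 against NK with a log2 fold of -1.42 (standard error 0.44, adjusted p 0.0477 by limma voom), a call lost without the filter on low counts (limma voom adjusted p 0.790). Between the MNK-3 libraries its log2 ratio was 0.52, and ILC2 over NK had a log2 ratio of -0.89, which was not called.

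Of 5 further PRC2 subunits, 2 were above 2-fold in MNK-3 relative to NK and 1 was below, against 36.4% and 10.9% of genes at 10 CPM or more. Aebp2, a cofactor of the PRC2.2 form together with Jarid2, had 502 and 674 CPM in MNK-3, 539 CPM in ILC2 and 105 CPM in NK. It rose in MNK-3 against NK with a log2 fold of 2.45 (standard error 0.49, adjusted p 5.08e-05 by limma voom), and in ILC2 against NK by 2.36 (standard error 0.51, adjusted p 0.000777 by limma voom). Phf1, a Tudor-domain cofactor of the PRC2.1 form, had 26.5 and 26.9 CPM in MNK-3, 10.9 CPM in ILC2 and 70.5 CPM in NK, and its relative Phf19 had 54.2 and 47.8 CPM in MNK-3, 38.7 CPM in ILC2 and 9.27 CPM in NK. Neither Phf1 nor Phf19 was called. Mtf2 and Epop stayed below 100 CPM in each library, and Epop had 38.7 and 55.0 CPM in MNK-3, 59.4 CPM in ILC2 and 24.8 CPM in NK.

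Cell cycle transcripts were also higher in MNK-3 and ILC2 than in NK. Of 24 proliferation genes, 23 exceeded NK by 2-fold or more in MNK-3 and 22 did so in ILC2, with median log2 ratios of 4.48 and 3.87. Among genes at 10 CPM or more, 36.4% did so in MNK-3 and 22.1% in ILC2. Limma voom called 7 of the 24 higher in MNK-3 than in NK and 3 higher in ILC2 than in NK. Of all tested genes, 0.289% and 0.479% were called higher in these comparisons. The summed level of the 24 was 10275 and 14228 CPM in MNK-3, 7484 CPM in ILC2 and 1162 CPM in NK. Mki67, the proliferation marker, was at 2745 and 4011 CPM in MNK-3, 2014 CPM in ILC2 and 150.1 CPM in NK. The part of cell division in the Ezh2 difference was not tested.

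**Figure D3:**
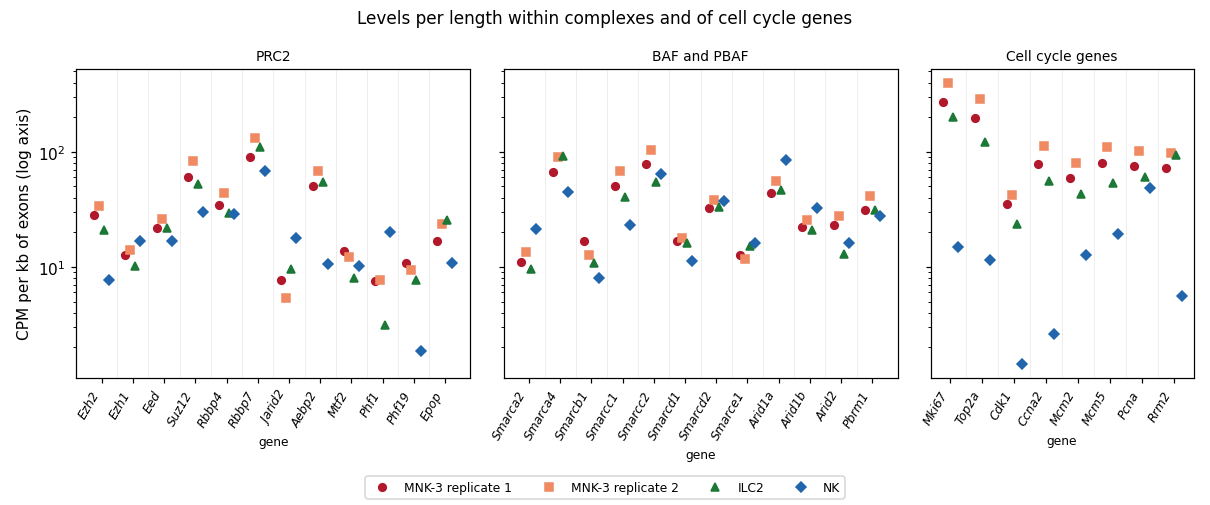
CPM per kb of merged exons (vertical, log axis) of PRC2 subunits, BAF and PBAF subunits and 8 cell cycle genes in each library. In NK, Ezh2 lies below Ezh1 and the cell cycle genes are lower than elsewhere, whereas Arid1a and Jarid2 are highest there.

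Promoter windows were read for the members to show where the divergent PRC2 subunits stand. RefSeq promoter windows of 300 bases (250 before to 50 after the start that set the window, GRCm38.p6) were present for 33 members, as 38 windows. Cell cycle genes are often regulated through E2F sites, so the windows were searched on both strands for the E2F-type motifs TTTCCCGC, TTTGGCGC and TTTCGCGC. No 2 of these motifs overlapped in a member window. At least 1 motif was present in 4 of 38 member windows (10.5%), against 606 of 32851 windows overall (1.84%). Each motif contains CG, and these sets of windows were not matched for CpG content, which is given below. The single motifs were present in 1.07%, 0.514% and 0.323% of all windows, in the order given. Ezh2 and Suz12 are shown with their motif, Ezh1 as the paralog with none of these motifs in its window, and Arid1a as a motif bearer with both MNK-3 libraries below NK. The other Arid1a window (chr4:133756720-133757019), at the annotated start of the gene, had no motif. Each sequence runs 5′ to 3′ on the gene's own strand with the motif in capitals.
Ezh2 (chr6:47594981-47595280, minus strand): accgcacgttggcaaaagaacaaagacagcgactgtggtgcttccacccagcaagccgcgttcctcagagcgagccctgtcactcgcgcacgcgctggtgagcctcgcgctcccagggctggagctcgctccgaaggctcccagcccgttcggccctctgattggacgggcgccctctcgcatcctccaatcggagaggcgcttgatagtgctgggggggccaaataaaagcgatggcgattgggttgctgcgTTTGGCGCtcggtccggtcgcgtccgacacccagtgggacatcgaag
Suz12 (chr11:79992856-79993155, plus strand): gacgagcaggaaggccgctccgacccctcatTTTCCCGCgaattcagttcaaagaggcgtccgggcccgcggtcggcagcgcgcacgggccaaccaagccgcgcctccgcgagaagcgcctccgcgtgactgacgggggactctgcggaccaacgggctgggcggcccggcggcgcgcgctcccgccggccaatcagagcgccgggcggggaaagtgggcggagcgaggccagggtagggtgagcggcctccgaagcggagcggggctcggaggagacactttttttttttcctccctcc
Ezh1 (chr11:101226414-101226713, minus strand): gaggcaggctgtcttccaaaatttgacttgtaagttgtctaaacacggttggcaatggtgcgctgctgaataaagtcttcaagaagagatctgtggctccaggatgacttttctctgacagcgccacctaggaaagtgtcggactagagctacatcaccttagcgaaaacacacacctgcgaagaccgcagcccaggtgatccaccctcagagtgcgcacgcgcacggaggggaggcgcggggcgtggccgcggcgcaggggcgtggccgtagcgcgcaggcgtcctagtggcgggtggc
Arid1a (chr4:133753936-133754235, minus strand): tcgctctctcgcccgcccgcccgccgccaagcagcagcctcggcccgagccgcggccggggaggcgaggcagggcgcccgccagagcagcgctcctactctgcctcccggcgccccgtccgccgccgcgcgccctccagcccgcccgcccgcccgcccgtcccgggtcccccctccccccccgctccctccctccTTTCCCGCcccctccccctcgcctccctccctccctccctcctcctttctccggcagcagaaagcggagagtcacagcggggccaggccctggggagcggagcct
The motif began 3 bases after the start that set the window in Ezh2. The annotated start of Ezh2, at 47595341, lies outside that window. The offset of the motif from the start that set the window was -219 in Suz12, -131 in Smarcd1 and -55 in the Arid1a window shown. The log2 ratios of these 4 genes in MNK-3 over NK were 2.00 for Ezh2, 1.24 for Suz12, 0.62 for Smarcd1 and -0.77 for Arid1a. Whether the motif bears on these levels was not tested. A match describes letters in a window and not a bound site. The member windows also shared a base composition, with a median of 33 CpG dinucleotides (range 4 to 57) against 7 over all windows, and 37 of 38 exceeded that overall median.

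Among the BAF and PBAF remodellers, several subunits that stand in for one another differed between cell types. Smarca4 (BRG1), a catalytic ATPase, had 435 and 587 CPM in MNK-3, 596 CPM in ILC2 and 287 CPM in NK. Smarca2 (BRM), the alternative ATPase, had 158 and 193 CPM in MNK-3, 137 CPM in ILC2 and 303 CPM in NK, with the highest value in NK. Smarca4 therefore took 73.3% and 75.3% in MNK-3, 81.3% in ILC2 and 48.6% in NK of the pair's reads, with an exact interval of 46.8% to 50.5% in NK. Per kb of merged exons, the ratio of Smarca4 to Smarca2 was 6.05 and 6.71 in MNK-3, 9.56 in ILC2 and 2.09 in NK. Those exons span 6475 bp for Smarca4 and 14269 bp for Smarca2, which need not be the lengths of the transcripts expressed. In NK, Smarca4 led on this scale alone, as it had 1333 reads and Smarca2 had 1407. Neither gene was called in any comparison; for ILC2 over NK the log2 ratios were 1.05 for Smarca4 (limma voom adjusted p 0.213) and -1.14 for Smarca2 (limma voom adjusted p 0.368).

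Smarcc1 (BAF155), a core scaffold, had 395 and 528 CPM in MNK-3, 319 CPM in ILC2 and 180.0 CPM in NK. Smarcc1 (ENSMUSG00000032481, chromosome 9, 110117708 to 110240178, mm10) rose in MNK-3 against NK with a log2 fold of 1.32 (standard error 0.39, adjusted p 0.0321 by limma voom), both MNK-3 libraries lying above both other groups. Without the filter on low counts it was not called (limma voom adjusted p 0.635). Smarcc2 (BAF170), its partner in the core, had 432 and 571 CPM in MNK-3, 305 CPM in ILC2 and 354 CPM in NK and was not called. Smarcc1 made up 47.8% and 48.0% in MNK-3, 51.1% in ILC2 and 33.7% in NK of their joint reads.

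Arid1a (BAF250A), the large DNA-binding subunit that defines canonical BAF, had 503 and 641 CPM in MNK-3, 533 CPM in ILC2 and 973 CPM in NK. Arid1a (ENSMUSG00000007880, chromosome 4, 133679008 to 133756769, mm10) fell in MNK-3 against NK with a log2 fold of -0.79 (standard error 0.24, adjusted p 0.0383 by limma voom). Arid1b, which replaces Arid1a in a share of the complexes, had 281 and 322 CPM in MNK-3, 263 CPM in ILC2 and 411 CPM in NK. Both paralogs were highest in NK, and Arid1a took a share of 64.2% and 66.6% in MNK-3, 67.0% in ILC2 and 70.3% in NK. Arid2, which marks the PBAF form, had 249.9 and 298 CPM in MNK-3, 139 CPM in ILC2 and 172 CPM in NK, and Pbrm1, its bromodomain partner in PBAF, had 278 and 368 CPM in MNK-3, 279 CPM in ILC2 and 246 CPM in NK. In MNK-3 the ARID of PBAF was thus above both other groups while the ARIDs of BAF lay below NK, though Arid2 was not called in any comparison.

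The remaining core subunits had smaller differences. Smarcb1, the subunit that contacts the nucleosome acidic patch, had 134 and 99.8 CPM in MNK-3, 85.7 CPM in ILC2 and 63.8 CPM in NK. Smarcd1 had 67.2 and 72.1 CPM in MNK-3, 65.5 CPM in ILC2 and 45.3 CPM in NK, and Smarcd2 had 116 and 137 CPM in MNK-3, 118 CPM in ILC2 and 133 CPM in NK. Smarce1, an HMG-domain subunit, had 83.7 and 78.3 CPM in MNK-3, 100.3 CPM in ILC2 and 108 CPM in NK. All 4 stayed within 2-fold in each comparison. Of the 15 further BAF and PBAF genes measured, 6 exceeded NK by 2-fold in MNK-3 and 1 lay below NK by as much, and limma voom called 0, with 2 at an unadjusted p under 0.05. Both MNK-3 libraries lay above NK for 3 of those 6, whereas Actl6b, Dpf1 and Dpf3 passed through replicate 1 alone. Among genes at 10 CPM or more, 36.4% passed 2-fold above NK and 10.9% below. Phf10, the PHD-finger subunit of PBAF, had 155 and 203 CPM in MNK-3, 107 CPM in ILC2 and 26.3 CPM in NK. These 4 were singled out after their values were seen.

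Of the 3 PRC1 members, 1 passed 2-fold in MNK-3 over each other group, and limma voom called 0, with 0 at an unadjusted p under 0.05. Among genes at 10 CPM or more, 36.4% passed 2-fold above NK and 32.4% above ILC2. Of all tested genes, 0.289% were called higher and 2.04% lower in MNK-3 over NK, and 0.902% and 2.37% over ILC2. Bmi1 (PCGF4), which stimulates the ubiquitin ligase, had 71.2 and 84.5 CPM in MNK-3, 92.9 CPM in ILC2 and 57.1 CPM in NK. Rnf2 (RING1B), the main ligase, had 75.6 and 77.9 CPM in MNK-3, 47.8 CPM in ILC2 and 74.8 CPM in NK, the lowest value being that of ILC2. Ring1 (RING1A) had 25.8 and 21.3 CPM in MNK-3, 10.1 CPM in ILC2 and 10.3 CPM in NK. Ring1 was therefore 2-fold higher in MNK-3 than in either other group at a level where NK had 48 reads, and it was not called. Rnf2 made up 74.5% and 78.6% in MNK-3, 82.5% in ILC2 and 87.8% in NK of the pair's reads.

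Further PRC1 genes included its readers and scaffold subunits. Of 17 further PRC1 genes, 9 stood 2-fold or more above NK in MNK-3 and 1 stood below, and 7 stood above ILC2 and 0 below. The shares among genes at 10 CPM or more were 36.4% above and 10.9% below NK. Against ILC2 they were 32.4% and 10.2%. Cbx6, a chromodomain reader, had 243 and 246 CPM in MNK-3, 58.0 CPM in ILC2 and 27.8 CPM in NK. It rose in MNK-3 against ILC2 with a log2 fold of 2.07 (standard error 0.47, adjusted p 0.000711 by limma voom). Cbx2, another reader, had 58.2 and 69.2 CPM in MNK-3, 9.46 CPM in ILC2 and 7.76 CPM in NK, and Phc1, a polyhomeotic subunit, had 97.3 and 103 CPM in MNK-3, 16.1 CPM in ILC2 and 35.6 CPM in NK. Neither was called. Phc3, a related subunit, had 296 and 325 CPM in MNK-3, 112 CPM in ILC2 and 176 CPM in NK and rose in MNK-3 against ILC2 with a log2 fold of 1.46 (standard error 0.36, adjusted p 0.00319 by limma voom). Cbx7 was highest in NK at 81.7 CPM, but its MNK-3 libraries disagreed at 57.6 and 18.6 CPM.

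Of the 4 KMT2 enzymes, 3 had both MNK-3 libraries below NK, as did 24.8% of genes at 10 CPM or more. Kmt2c (MLL3), an enhancer monomethyltransferase, had 233 and 255 CPM in MNK-3, 305 CPM in ILC2 and 634 CPM in NK. The MNK-3 libraries were close to each other and both lay below the other groups. Kmt2c (ENSMUSG00000038056, chromosome 5, 25271798 to 25498783, mm10) fell in MNK-3 against NK with a log2 fold of -1.39 (standard error 0.28, adjusted p 4.6e-05 by limma voom), the smallest adjusted p among the members. Kmt2d (MLL4), which shares its function, had 703 and 949 CPM in MNK-3, 704 CPM in ILC2 and 1137 CPM in NK and was not called in any comparison with library totals and the filter on low counts. It was called lower in MNK-3 than in NK when that filter was dropped. With factors from abundant genes it was called for MNK-3 over ILC2 and for ILC2 over NK. Within the pair, Kmt2d took 75.1% and 78.8% in MNK-3, 69.8% in ILC2 and 64.2% in NK of the reads.

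Kmt2a (MLL1), which maintains Hox gene expression, had 307 and 346 CPM in MNK-3, 521 CPM in ILC2 and 596 CPM in NK. Both MNK-3 libraries were below ILC2 and NK, with a log2 ratio of -0.87 over NK that missed the threshold (limma voom adjusted p 0.0552) and of -0.67 over ILC2 (limma voom adjusted p 0.117). Kmt2a was called lower in MNK-3 than in NK when the filter on low counts was dropped and when ILC2 was left out of the fit. It was called lower in MNK-3 than in ILC2 with factors from abundant genes (limma voom adjusted p 0.0356), without the filter (0.00740) and with NK left out (0.0299). Kmt2b (MLL2), its paralog, had 181 and 203 CPM in MNK-3, 163 CPM in ILC2 and 157 CPM in NK, so Kmt2a made up 62.9% and 63.0% in MNK-3, 76.1% in ILC2 and 79.2% in NK of their reads. Of the 9 further genes of these complexes, limma voom called 0 in MNK-3 over NK, with 1 at an unadjusted p under 0.05, against 5.19% of tested genes. In MNK-3, 2 of the 9 stood 2-fold or more above NK, with both libraries above it, and 0 stood below. Among genes at 10 CPM or more, 36.4% passed 2-fold above NK and 10.9% below.

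Kdm6b (JMJD3), which removes methyl groups from lysine 27 and so opposes PRC2, had 101 and 113 CPM in MNK-3, 196 CPM in ILC2 and 162 CPM in NK. Its log2 ratio was -0.87 for MNK-3 over ILC2, the lowest of the 39 genes there, and it did not pass (limma voom adjusted p 0.166). The other lysine 27 demethylase gene, Kdm6a, had 94.1 and 117 CPM in MNK-3, 84.3 CPM in ILC2 and 96.2 CPM in NK.

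**Figure D4:**
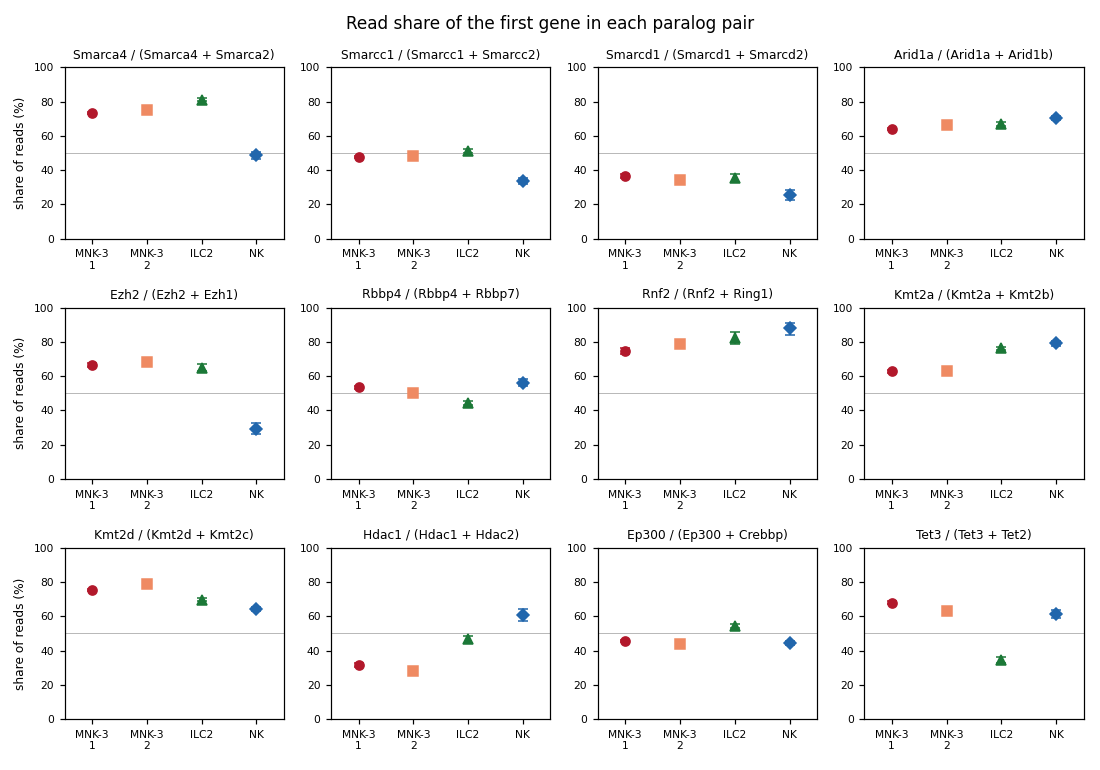
Share of reads (vertical, percent) that the first gene takes in each of 12 paralog pairs, by library, with exact 95% Clopper-Pearson intervals for counting error. The NK library has the most distant share for Smarca4 and Smarca2 and for Ezh2 and Ezh1, and the ILC2 library does for Tet3 and Tet2. For Hdac1 and Hdac2, the share rises from MNK-3 through ILC2 to NK.

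Deacetylases of class I differed in which paralog led. Hdac1 had 71.4 and 75.6 CPM in MNK-3, 105 CPM in ILC2 and 104 CPM in NK, and Hdac2, with which it forms the catalytic core of NuRD and other complexes, had 154 and 192 CPM in MNK-3, 121 CPM in ILC2 and 67.1 CPM in NK. Hdac1 took 31.7% and 28.2% in MNK-3, 46.6% in ILC2 and 60.8% in NK of the reads of the pair, with exact intervals of 44.4% to 48.8% in ILC2 and 57.3% to 64.2% in NK. Per kb of merged exons, the ratio of Hdac1 to Hdac2 was 0.602 and 0.51 in MNK-3, 1.13 in ILC2 and 2.01 in NK. By reads and per kb alike, Hdac2 led in both MNK-3 libraries and Hdac1 led in NK. In ILC2, Hdac1 led per kb but had fewer reads than Hdac2. The log2 ratio of Hdac2 for MNK-3 over NK was 1.36 (limma voom adjusted p 0.813). Hdac3, the deacetylase of the NCoR complexes, had 61.0 and 70.6 CPM in MNK-3, 56.2 CPM in ILC2 and 28.0 CPM in NK and was not called.

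Chd4 and Mta2, NuRD subunits with no deacetylase activity, stayed within 2-fold in each comparison. Chd4 had 806 and 1077 CPM in MNK-3, 1058 CPM in ILC2 and 1115 CPM in NK, and Mta2, a scaffold, had 239 and 324 CPM in MNK-3, 234 CPM in ILC2 and 323 CPM in NK. None of 13 further NuRD and class I genes was 2-fold apart between MNK-3 and NK, and limma voom called 0 of them, with 1 at an unadjusted p under 0.05. Among deacetylases of other classes, 5 of 7 stood 2-fold or more above NK in MNK-3, and 5 of 7 above ILC2, where both MNK-3 libraries lay above ILC2 for 4. The shares among genes at 10 CPM or more were 36.4% above NK and 32.4% above ILC2. Hdac9, a class IIa enzyme, had 49.8 and 56.1 CPM in MNK-3, 1.40 CPM in ILC2 and 3.23 CPM in NK, the ILC2 and NK levels resting on 13 and 15 reads, and it was not called. Hdac5, of the same class, had 172 and 212 CPM in MNK-3, 56.2 CPM in ILC2 and 78.1 CPM in NK and rose in MNK-3 against ILC2 with a log2 fold of 1.74 (standard error 0.48, adjusted p 0.0126 by limma voom).

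With library totals, the transcripts of CBP and p300 were lowest in ILC2. Crebbp (CBP) had 474 and 638 CPM in MNK-3, 315 CPM in ILC2 and 715 CPM in NK, and Crebbp (ENSMUSG00000022521, chromosome 16, 4081328 to 4213997, mm10) fell in ILC2 against NK with a log2 fold of -1.18 (standard error 0.33, adjusted p 0.0261 by limma voom). Ep300 (p300) had 398 and 497 CPM in MNK-3, 373 CPM in ILC2 and 571 CPM in NK, with the same order of groups and no call. Ep300 made up 45.6% and 43.8% in MNK-3, 54.2% in ILC2 and 44.4% in NK of their reads. Of the 7 further acetyltransferase genes, Kat6a (MOZ) had 324 and 437 CPM in MNK-3, 281 CPM in ILC2 and 770.2 CPM in NK and fell against NK in MNK-3 with a log2 fold of -1.06 (standard error 0.26, adjusted p 0.0023 by limma voom) and in ILC2 by -1.45 (standard error 0.33, adjusted p 0.00154 by limma voom). Its paralog Kat6b (MORF) had 224 and 223 CPM in MNK-3, 56.6 CPM in ILC2 and 96.2 CPM in NK and rose in MNK-3 against ILC2 with a log2 fold of 1.98 (standard error 0.48, adjusted p 0.00192 by limma voom).

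Among the DNA methylation genes, Dnmt3a, the de novo methyltransferase, had 228 and 207 CPM in MNK-3, 90.2 CPM in ILC2 and 93.8 CPM in NK. The MNK-3 libraries differed by a log2 ratio of 0.14 and lay above both other groups, which were close to each other. Dnmt3a (ENSMUSG00000020661, chromosome 12, 3806007 to 3914443, mm10) rose in MNK-3 against ILC2 with a log2 fold of 1.28 (standard error 0.40, adjusted p 0.0422 by limma voom) that was not called without the filter on low counts (limma voom adjusted p 0.410). Over NK the log2 ratio of 1.21 was not called (limma voom adjusted p 0.507). An annotated processed copy, Dnmt3a-ps1, could share reads with it.

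The balance of TET dioxygenases stood apart in ILC2. Tet2 had 140.2 and 169 CPM in MNK-3, 282 CPM in ILC2 and 125 CPM in NK, and Tet3 had 295 and 289 CPM in MNK-3, 148 CPM in ILC2 and 199 CPM in NK. Tet2 was highest and Tet3 lowest in ILC2, so Tet3 took 67.8% and 63.0% in MNK-3, 34.5% in ILC2 and 61.4% in NK of the pair's reads, with an exact interval of 33.00% to 35.97% in ILC2. Per kb, the ratio of Tet3 to Tet2 was 2.13 and 1.72 in MNK-3, 0.532 in ILC2 and 1.61 in NK, and Tet2 was thus the more abundant transcript in ILC2 and Tet3 in the other libraries. The log2 ratio of Tet2 was -0.86 for MNK-3 over ILC2 (limma voom adjusted p 0.0667) and 1.17 for ILC2 over NK (limma voom adjusted p 0.621). Tet1, the third family member, had 66.9 and 0.922 CPM in MNK-3, 7.21 CPM in ILC2 and 11.4 CPM in NK, and here the high value was that of MNK-3 replicate 1 alone; the gene was singled out after its values were seen.

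The maintenance genes of DNA methylation were lowest in NK. Dnmt1, the maintenance methyltransferase, had 936 and 1282 CPM in MNK-3, 641 CPM in ILC2 and 490.3 CPM in NK. It rose in MNK-3 against NK with a log2 fold of 1.14 (standard error 0.28, adjusted p 0.00235 by limma voom) and against ILC2 by 0.75 (standard error 0.22, adjusted p 0.0217 by limma voom). Uhrf1, which brings Dnmt1 to replicated DNA, had 423 and 580.2 CPM in MNK-3, 308 CPM in ILC2 and 20.1 CPM in NK. Its log2 ratio for MNK-3 over NK, 4.61, was the largest of the 103 further genes, and it was not called (limma voom adjusted p 0.195). The cell cycle list described with Ezh2 had its low value in the same library.

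Dot1l and Setd2, which methylate histone H3 in transcribed genes, differed in their order of groups. Dot1l, the lysine 79 methyltransferase, had 263 and 298 CPM in MNK-3, 106 CPM in ILC2 and 77.8 CPM in NK, the MNK-3 libraries lying above both other groups. Dot1l (ENSMUSG00000061589, chromosome 10, 80755206 to 80795461, mm10) rose in MNK-3 against ILC2 with a log2 fold of 1.39 (standard error 0.37, adjusted p 0.00839 by limma voom), and without the filter on low counts it was not called (limma voom adjusted p 0.143). Its log2 ratio over NK was larger, 1.84, but did not pass (limma voom adjusted p 0.065). Setd2, the lysine 36 trimethylating enzyme, had 357 and 465 CPM in MNK-3, 224 CPM in ILC2 and 546 CPM in NK. Setd2 (ENSMUSG00000044791, chromosome 9, 110532597 to 110618633, mm10) fell in ILC2 against NK with a log2 fold of -1.28 (standard error 0.36, adjusted p 0.0314 by limma voom), and its adjusted p by limma voom was 0.0987 without the filter on low counts.

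The lysine 36 methyltransferases of the NSD family, counted among the further genes, diverged from one another. Nsd1 had 175 and 169 CPM in MNK-3, 453 CPM in ILC2 and 736 CPM in NK, and it fell in MNK-3 against NK with a log2 fold of -2.10 (standard error 0.27, adjusted p 7.02e-12 by limma voom) and against ILC2 by -1.39 (standard error 0.26, adjusted p 1.31e-05 by limma voom). Nsd2 had 482 and 649.9 CPM in MNK-3, 263 CPM in ILC2 and 227 CPM in NK, and it rose in MNK-3 against NK by 1.28 (standard error 0.36, adjusted p 0.0177 by limma voom) and against ILC2 by 1.07 (standard error 0.28, adjusted p 0.00529 by limma voom). Nsd3 had 236 and 268 CPM in MNK-3, 210.0 CPM in ILC2 and 497 CPM in NK, and it fell in MNK-3 against NK with a log2 ratio of -0.98 (limma voom adjusted p 0.0293). Ash1l, a related enzyme, had 166 and 182 CPM in MNK-3, 116 CPM in ILC2 and 324 CPM in NK, with a log2 ratio of -1.47 for ILC2 over NK that was not called (limma voom adjusted p 0.0633).

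Across all 103 further genes of these complexes and classes, 36 stood 2-fold or more above NK in MNK-3 and 7 below, with 5 called higher and 4 lower by limma voom. Both MNK-3 libraries lay above NK for 32 of the 36, and genes at 10 CPM or more passed 2-fold in shares of 36.4% and 10.9%. In MNK-3 against ILC2 the counts were 24 and 3 at 2-fold, with 6 called higher and 3 lower, against 32.4% and 10.2% of genes at 2-fold. Both MNK-3 libraries lay above ILC2 for 19 of the 24. In ILC2 against NK they were 11 and 11, with 2 called higher and 1 lower, against 22.1% and 16.8% of genes at 2-fold. The calls not yet described were those of ATP-dependent remodellers and of genes of lysine 9 methylation. Chd7, a remodeller mutated in CHARGE syndrome, had 109 and 133 CPM in MNK-3, 295 CPM in ILC2 and 454 CPM in NK and fell in MNK-3 against NK with a log2 fold of -1.94 (standard error 0.32, adjusted p 1.3e-07 by limma voom) and against ILC2 by -1.32 (standard error 0.30, adjusted p 0.000642 by limma voom). Baz1a (ACF1), a partner of the ISWI ATPase, had 185 and 221 CPM in MNK-3, 574 CPM in ILC2 and 320.0 CPM in NK and fell in MNK-3 against ILC2 with a log2 fold of -1.52 (standard error 0.25, adjusted p 1.37e-07 by limma voom). Cbx5 (HP1 alpha) had 460.4 and 648 CPM in MNK-3, 392 CPM in ILC2 and 80.2 CPM in NK, and it rose against NK in MNK-3 with a log2 fold of 2.74 (standard error 0.57, adjusted p 0.000113 by limma voom) and in ILC2 by 2.29 (standard error 0.59, adjusted p 0.0124 by limma voom). Trim28 (KAP1), a corepressor that recruits lysine 9 methylation, had 357 and 486 CPM in MNK-3, 325 CPM in ILC2 and 160.0 CPM in NK and rose in MNK-3 against NK with a log2 fold of 1.35 (standard error 0.41, adjusted p 0.0396 by limma voom).

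The members also shared gene structure. Their median exon length was 7930 bp, against 3165 bp over the genes tested, and 38 of 39 were longer than that median. Exons of other annotated genes overlapped 18.05% of the exon length of Rbbp4, 12.7% of Smarcd1, 6.82% of Eed and less than that of the other members. The 3 overlaps named lie on the opposite strand, and since the strand setting of the counting was not given in the sources used here, reads of the overlapping pairs cannot be told apart.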

How the data were processed

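Total RNA libraries of 4 samples were made with a stranded low-input kit, per the labels' protocols, which name 2 technical replicates per experiment; whether these were pooled is not known. Alignment with STAR 2.7.8a to mm10/GRCm38 and counting with HTSeq are named in the submitters' processing notes. The authors deposited whole-number, unnormalized read counts by gene, whose unit is recorded as other because the layout of the tables kept them from being checked as counts. Entries naming no gene (76.5% and 26.6% of reads in MNK-3, 25.9% in ILC2 and 49.3% in NK) were left out.

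CPM used totals over the 30731 genes listed for every sample. The test was limma voom (limma 3.58.1, R 4.3.3), two-sided, with 4 libraries in 1 fit of 3 groups, 1 residual degree of freedom and a spread pooled over genes. It covered 25283 genes (minimum count 10, minimum total 15), and a call needed an adjusted p (Benjamini-Hochberg) under 0.05. Sizes are log2 ratios of CPM plus 0.5, with MNK-3 as the mean of its libraries, and lengths are merged exons of GENCODE M21. Tested on simulated data for MNK-3 over NK with 22091 genes, the fit called 8.2% of true 2-fold changes, 53.6% at 4-fold and 81.2% at 8-fold. These were 5, 30 and 52 right calls, while 61 of 21910 unchanged genes were called as well. The adjusted p threshold of 0.05 therefore did not bound the share of false calls there. The simulation set a squared coefficient of variation of 0.05 for every library.

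The members, lists and tests were chosen with earlier results of these data known. Named genes are members called in any comparison, the 3 highest and 3 lowest members in each by log2 ratio at 10 CPM or more, both genes of a paralog pair whose share differed by 20 points or more, and further genes of the same classes by the first 2 of these rules.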

Additional observations from a re-analysis of the deposited data

How the results depend on the processing

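Calls and directions depended mainly on library scaling. Library totals left the chromatin genes with a median log2 ratio of -0.25 between MNK-3 replicate 1 and replicate 2, against -0.97 with TMM factors, -1.44 with median-of-ratios factors and 0.03 with factors from abundant genes. With library totals, 4, 2 and 2 members were called for MNK-3 over NK, MNK-3 over ILC2 and ILC2 over NK. TMM factors called 0 members in each comparison, with 1, 0 and 0 at an unadjusted p under 0.05, and median-of-ratios factors also called 0 in each, with 0, 0 and 0 at that level. Factors from abundant genes called 1 member for MNK-3 over NK (Arid1a), 3 for MNK-3 over ILC2 (Chd4, Kmt2a and Kmt2d) and 1 for ILC2 over NK (Kmt2d). Without the filter on low counts, 4 members were called for MNK-3 over NK (Arid1a and Kmt2c kept, Kmt2a and Kmt2d added), 1 for MNK-3 over ILC2 (Kmt2a), and 2 for ILC2 over NK (Crebbp kept, Arid1a added). With NK left out, 5 were called for MNK-3 over ILC2, among them Crebbp, Kmt2a and Tet2, and with ILC2 left out Kmt2a was added for MNK-3 over NK.

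For MNK-3 over NK, median-of-ratios factors gave a median log2 ratio of 0.094 and 5 members at least 2-fold higher. For MNK-3 over ILC2, the median was -0.093 with TMM factors and -0.30 with median-of-ratios factors; TMM factors gave 1 member at least 2-fold higher and 3 lower, and median-of-ratios factors 0 higher and 5 lower. For ILC2 over NK, the median was 0.29 with either, with 9 members higher and 0 lower. The median over all tested genes also moved with the scaling, being 1.12 for MNK-3 over ILC2 with library totals and 0.77 with TMM factors. Leaving out 1 MNK-3 replicate gave 3 to 6 members at least 2-fold higher than in ILC2 and 0 to 1 lower. Members called or among the 3 highest or lowest of a comparison kept the direction of that comparison under the alternatives run for them. The paralog shares did so with each MNK-3 library alone, except 2 small differences of -0.039 points for Smarcd1 against ILC2 and 0.333 points for Ep300 against NK. The cause of the lost calls was not tested.

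The negative binomial test planned for counts was left out, since the unit of the tables is recorded as other. No paired analysis was possible because ILC2 and NK have 1 library each. At 48 reads, the NK level of Ring1 has an exact counting interval of 7.63 to 13.7 CPM, which bounds what this depth can show.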
